A study of Mus musculus with 2 samples.

Results

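Mir139 is a microRNA gene whose hairpin lies inside an intron of the phosphodiesterase gene Pde2a. It was the most abundant gene in the small RNA profile of the mouse cerebral cortex described here. It was taken from the deposited count tables as the gene whose identifier carries the symbol Mir139 in GENCODE M21, and it is 1 of 2202 microRNA genes, of which 406 had at least 10 counts in each library and are called detected. It was chosen by its mean level over both libraries, the highest of all genes, so its level, share and rank are given as descriptions with no test. Both libraries came from left cerebral cortex of male B6CASTF1/J mice aged 14 days, the first-generation cross of the C57BL/6 and CAST/Ei strains, with no treatment named in the labels. The labels number the libraries as biological replicates 1 and 2 of 1 group, under the same donor label and with separate tissue records. The names of the tissue records refer to males in the plural. With the same donor label, they do not settle whether separate animals or pools of animals were used. Each SD therefore describes these 2 libraries and may be technical. No comparison of conditions exists.

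MicroRNAs are short RNAs cut from a hairpin precursor. One arm of the hairpin, or each of them, is loaded into an Argonaute protein, and its seed, the bases near the 5′ end, pairs with sites in messenger RNAs and lowers their output. Mir139 gives miR-139-5p and miR-139-3p, and miR-139-5p is known as a microRNA whose loss is common in tumours. The host protein PDE2A breaks down cAMP and cGMP, is stimulated by cGMP through its GAF domains and is known for its high level in the forebrain, where it limits second messenger signals at synapses.

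The sequence of Mir139 decides which reads can be counted for it, and it is shown for that reason together with the mature forms of the genes ranked next. The sequences are those of RefSeq on GRCm38.p6, the assembly also called mm10, which represents C57BL/6J. Alleles of the CAST/Ei parent were not analysed here. The hairpin has 68 bases on chromosome 7, from 101475376 to 101475443 on the plus strand, at the same position in GENCODE M21 (ENSMUSG00000065446.1). Capitals mark the mature arms in the hairpin and the seed, bases 2 to 8, in each mature form.
Mir139 hairpin: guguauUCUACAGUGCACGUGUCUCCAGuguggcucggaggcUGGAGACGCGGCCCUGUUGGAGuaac
miR-139-5p: uCUACAGUgcacgugucuccag
miR-139-3p: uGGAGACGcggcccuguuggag
let-7g-5p: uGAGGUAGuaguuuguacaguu
let-7i-5p: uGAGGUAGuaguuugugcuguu
let-7b-5p: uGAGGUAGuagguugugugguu

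miR-139-5p lies from 101475382 to 101475403 and miR-139-3p from 101475418 to 101475439, each 22 bases long, with 14 bases between them. The hairpin has a GC content of 58.8%, the 5p arm 54.5% and the 3p arm 68.2%. The minimum free energy structure computed from the sequence, at -35.6 kcal/mol, pairs 19 bases of one arm with the other. In it 6 of the 7 seed bases of miR-139-5p are paired. The deposited counts are per hairpin, so how the reads of Mir139 divide between its arms was not analysed here.

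Neither seed of Mir139 is held by another mature microRNA in the RefSeq table. Of 1398 different seeds among 1679 named mature forms, 1211 (86.6%) belong to a single form, so a seed held alone is the usual case. The genes ranked next differ in this: the 5p forms of Mirlet7g, Mirlet7i and Mirlet7b printed above carry the same seed. Of the 10 leading genes 5 are let-7 genes, a family known for rising as cells differentiate. Their summed level was 246998 CPM (counts per 1000000, a library total common to both) in replicate 1 and 254818 CPM in replicate 2, or 2.75 ± 0.449 times Mir139 (SD, n = 2). Mir139 thus led as a single gene, while the let-7 genes as a family stood above it in both libraries.

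The hairpin of Mir139 also shares no long stretch with another, which bears on how its reads were counted. The authors' tables give no gene to a read that matched several genomic positions. A stretch of 18 bases recurs in the hairpin of some other, non-overlapping gene for 1135 of the 2202 genes (51.5%), and Mir139 is not among them. Of the 406 detected genes only 91 share such a stretch, so most detected genes are like Mir139 in this. Among the leading genes Mir127, Mir770, Mirlet7d, Mir744 and Mirlet7e share none either. The longest stretch Mir139 shares with any of the other 2201 hairpins is 11 bases on the same strand and 10 bases on the opposite strand. Neither of its mature arms shares more than 10. These lengths were not computed for other genes. Copies outside annotated microRNA genes were not searched. Mirlet7g, Mirlet7i and Mirlet7b, ranked just below Mir139, all share an 18-base stretch with another gene. Their counts can therefore be too low relative to that of Mir139. The stretch was sought in whole hairpins on either strand, and whether it lies in a mature arm of these genes was not analysed here.

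Mir139 had 417530 counts among 4111167 in replicate 1 and 265043 among 3189903 in replicate 2. It held 10.2% of the counts in replicate 1 (exact Clopper-Pearson 95% interval 10.1 to 10.2%) and 8.31% in replicate 2 (8.28 to 8.34%). Its level was therefore 101560 CPM and 83088 CPM, with replicate 1 the higher. Such intervals hold the counting error alone and assume independent reads; without molecular identifiers, reads are not independent molecules. Each interval spans 0.0584 or 0.0606 percentage points, while the libraries differed by 1.85 percentage points.

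The scaling decides what these shares mean. Of 11224232 reads in replicate 1, 39.1% matched several positions, and of 8758378 in replicate 2, 41.4% did. They were 1.07 and 1.14 times as many as the reads counted in genes. Set against all reads, Mir139 held 3.72% in replicate 1 and 3.03% in replicate 2. With the reads of several positions added to the gene counts, it held 4.91% and 3.89%. All 3 scalings place replicate 1 above replicate 2. How many of the left-out reads come from microRNAs was not analysed here.

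All counts of Mir139 came from its own strand. The count with strand ignored was the same, 417530 and 265043, and the count on the opposite strand was 0 in both libraries. With 3 counts taken as the upper limit behind a count of 0, the opposite strand could hold 0.730 CPM (replicate 1) or 0.940 CPM (replicate 2), at most 0.00113% of the Mir139 count of the same library. GENCODE M21 lists no gene on the opposite strand at this position.

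Mir139 ranked first in each library, followed by Mirlet7g and then Mirlet7i in both. In replicate 1 Mir139 stood 1.42-fold above Mirlet7g (95% counting interval 1.42 to 1.43), which was at 71336 CPM. In replicate 2 the step narrowed to 1.08-fold (1.07 to 1.08), with Mirlet7g at 77037 CPM. The 2 values of Mir139 lay above both values of Mirlet7g. Mir139 was chosen by its mean over these libraries, so this is a description only. In counts the lead was 124255 in replicate 1 and 19303 in replicate 2, which equals 2.83% and 0.533% of the reads left out for several positions. The first rank is thus a statement about reads with a single position.

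**Figure D1:**
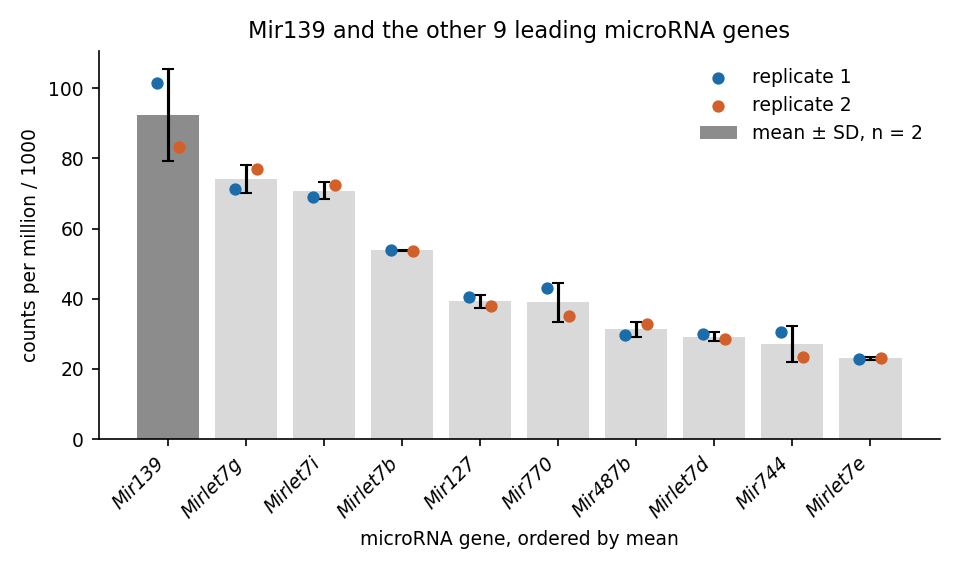
Level of the 10 microRNA genes with the highest mean, in CPM divided by 1000; points are the libraries, bars the mean and error bars the SD of 2. Mir139 leads in both libraries, with 101560 CPM (replicate 1) and 83088 CPM (replicate 2), and its libraries lie further apart than those of Mirlet7g or Mirlet7i.

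Below Mir139 the order of the leading genes was less distinct in places. Mirlet7i stood at 69076 and 72510 CPM in replicates 1 and 2, a range that overlaps that of Mirlet7g. Mirlet7b followed at 53823 and 53673 CPM, apart from its neighbours on both sides. Mir127, an imprinted microRNA antisense to Rtl1, at 40575 and 37949 CPM, and Mir770, in an exon of Meg3, at 42948 and 35089 CPM, changed places between the libraries. Mir487b, at 29670 and 32818 CPM, and Mirlet7d, at 30038 and 28387 CPM, overlapped as well. Mir744, in an intron of Map2k4, stood at 30605 and 23499 CPM, and Mirlet7e at 22725 and 23211 CPM closed the leading 10. Mir139 was 4.02-fold above Mirlet7e by the mean.

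Against the detected genes as a whole, Mir139 stood 798-fold above the median detected gene in replicate 1 and 724-fold above it in replicate 2, or 761 ± 51.9 (SD, n = 2). Its counts were at least as many as those of the 336 least abundant of the other 405 detected genes summed in replicate 1, and of the 327 least abundant in replicate 2.

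A gene of this size weighs on the measured level of every other gene, since CPM values share 1 total. With Mir139 left out of the totals, each other gene rose by the same factor, 1.11 in replicate 1 and 1.09 in replicate 2. The 10 genes with the most counts, taken in each library by itself, held 49.7% in replicate 1 and 46.8% in replicate 2. They include Mir149 in replicate 1 and Mir298 in replicate 2, in place of Mirlet7e. Without Mir139 the leading 10 of the remaining genes, again taken per library, held 46.6% and 44.5%. It took 11 genes in replicate 1 and 12 in replicate 2 to reach 50% of the counts, and 12 and 13 genes without Mir139.

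**Figure D2:**
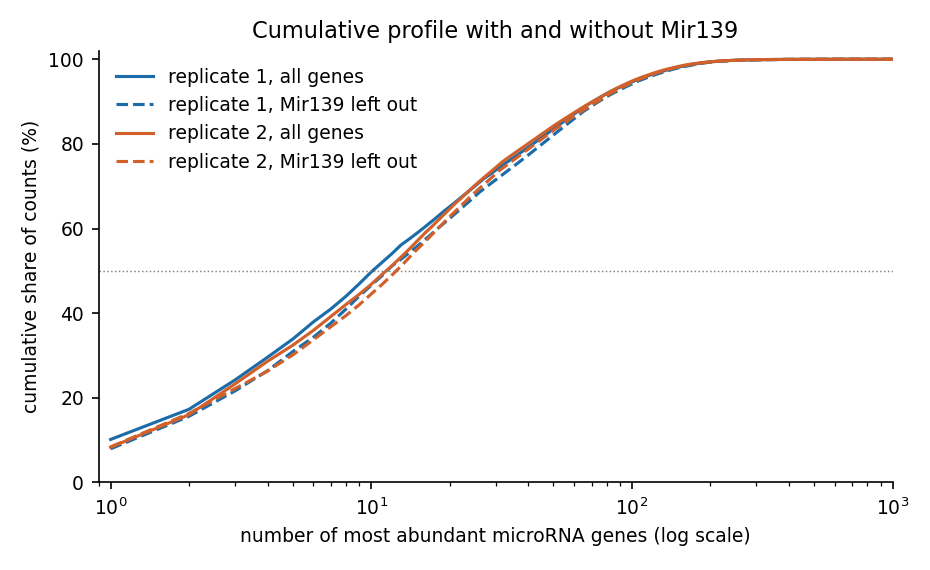
Cumulative share of counts, in percent, over the most abundant microRNA genes on a log scale, for each library with all genes (solid) and with Mir139 left out (dashed). With all genes the curves start at the share of Mir139, 10.2% in replicate 1 and 8.31% in replicate 2. The 50% line is crossed 1 gene later in each library when Mir139 is left out.

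The effective number of microRNA genes, the exponential of the Shannon entropy of the shares, says how many equally abundant genes would give the same diversity. It was 60.3 in replicate 1 and 61.7 in replicate 2, or 61.0 ± 1.02 (SD, n = 2), and without Mir139 it was 66.5 and 65.6. With Mir139 replicate 1 was the less diverse library, and without it replicate 2 was. By the inverse Simpson measure, which weighs abundant genes more, the number was 29.3 and 31.6 with Mir139, and 33.9 in each library without it. Mir139 alone made up 30.2% of the sum of squared shares behind that measure in replicate 1 and 21.8% in replicate 2.

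Between the libraries Mir139 was lower in replicate 2 by 18.2%, a log2 ratio of CPM of -0.29 (exact 95% counting interval -0.30 to -0.28). It passed the two-sided exact binomial test of its split of counts against that of the library totals, with Benjamini-Hochberg adjustment over the 406 detected genes; its p was below the smallest number the software holds. This test allows for read sampling only and compares 2 libraries, not conditions. It called 58.1% of the detected genes, and 34.7% as lower in replicate 2, so a call is the common outcome here. With TMM library sizes the ratio was -0.21, with DESeq2 size factors also -0.21, and with all reads as the total -0.30.

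The size of this difference was ordinary among all detected genes and larger than most among the abundant ones. The median absolute log2 ratio was 0.30 over the detected genes, and 211 of the 406 differed more than Mir139 did. Over the 25 most abundant genes the median was 0.15, and 8 of them differed more. Of the leading 10 genes, 6 were lower in replicate 2, Mir139 included, and 4 were higher. The adjacent genes went the other way: the log2 ratio was 0.11 for Mirlet7g and 0.07 for Mirlet7i.

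Among the other 104 genes with a mean of at least 1000 CPM, the 5 with a log2 ratio closest to that of Mir139 were Mir770 (-0.29), Mir409 (-0.28), Mir330 (-0.28), Mir484 (-0.31) and Mir323 (-0.27). The likeness is a difference of log2 ratios of at most 0.02 over 2 libraries, and many genes are near any given ratio. Mir770, Mir409 and Mir323 lie on chromosome 12 in the imprinted Dlk1-Dio3 region. Mir330 is on chromosome 7 like Mir139, in an exon of Eml2, and Mir484 is on chromosome 16.

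**Figure D3:**
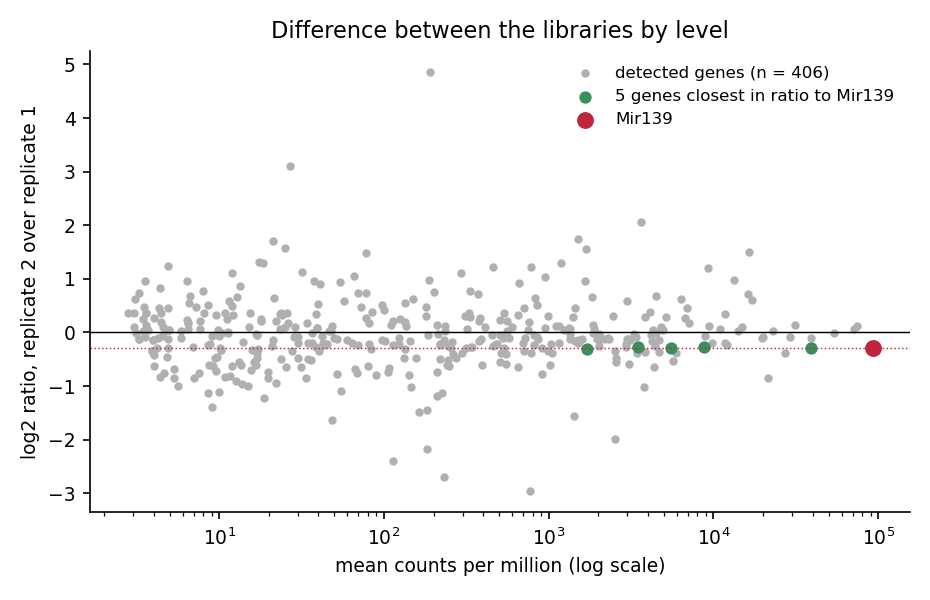
Log2 ratio of replicate 2 over replicate 1 against the mean level in CPM on a log scale, for the 406 detected genes. Mir139 (red, -0.29) is the point furthest to the right, below the zero line, and the 5 genes nearest to it in ratio (green) follow the dotted line at its value.

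Since Mir139 held more of the total in replicate 1, its removal also touched the ratios of the other genes. Without Mir139 in the totals every other log2 ratio moved by -0.03, and the median over the other 405 detected genes went from -0.08 to -0.11. The exact binomial test, adjusted over the genes tested, called 235 of these 405 genes with Mir139 in the totals, 95 higher and 140 lower in replicate 2. Without it 233 were called, 86 higher and 147 lower. These changes follow from the uniform shift.

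Markers of cortical cell types were measured in the same libraries, as a check of the tissue label and of what moved beside Mir139. Of 15 neuron markers 11 were detected, with a summed level of 50387 CPM in replicate 1 and 57904 CPM in replicate 2. Mir139 alone was 2.02 times and 1.43 times that sum; Mir124a-1, Mir124a-2, Mir124a-3 and Mir9-2 were not detected, and each shares an 18-base stretch with another gene, so this sum can be too low. The 3 oligodendrocyte markers summed to 2864 and 2531 CPM, the 6 microglia and leukocyte markers to 7736 and 10046 CPM, and the endothelial marker Mir126a stood at 10449 and 13176 CPM. The 2 smooth muscle and pericyte markers summed to 5074 and 5217 CPM, and the 7 choroid plexus and ciliated cell markers to 945 and 1316 CPM. Liver Mir122 stood at 51.8 and 48.0 CPM and the 2 erythroid markers summed to 51.6 and 86.2 CPM. The 7 muscle markers summed to 28.2 and 26.0 CPM, with Mir1a-1, Mir1a-2, Mir133a-1 and Mir133a-2 at 0; these 4 share an 18-base stretch with another gene.

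While Mir139 was lower in replicate 2, the neuron sum was higher there by a log2 ratio of 0.20. That direction rests on Mir132, an activity-induced microRNA with 12230 and 20125 CPM in replicates 1 and 2: without it the neuron sum was 38157 and 37779 CPM, a log2 ratio of -0.014. Mir212, from the same cluster as Mir132, was lower in replicate 2, with a log2 ratio of -0.58. Past the exact test 7 of the 11 detected neuron markers were higher and 4 lower, where the test called 23.4% of all detected genes as higher and 34.7% as lower. The oligodendrocyte sum was lower, at -0.18, and was -0.19 without Mir219a-2, its leading marker. The microglia and leukocyte sum was higher, at 0.38, but at 0.11 without Mir342. In that list Mir146 was higher as well (log2 ratio 0.31, adjusted p = 1.22e-18, exact binomial test). Mir142 was lower (log2 ratio -0.80, adjusted p = 2.74e-11, same test), and Mir150, Mir155 and Mir223 did not pass. Endothelial Mir126a was higher, at 0.33, as was the choroid plexus and ciliated cell sum, at 0.48 and at 0.70 without Mir204. The erythroid sum, 0.74, rests on Mir451a, since Mir144 did not pass. The part of any cell type in the difference of Mir139 was not tested. In tissue, fewer cells of a type and less RNA per cell cannot be told apart.

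The host gene, Pde2a (ENSMUSG00000110195.1), spans 91137 bases of chromosome 7 from 101421691 to 101512827 on the plus strand, the strand of Mir139. Mir139 starts 53685 bases after the start of the gene. Of 12 annotated transcripts 10 span it, among them all 4 protein-coding ones, and no exon of any of them overlaps it. In each protein-coding transcript it lies in intron 2, which runs from 101451469 to 101481370 and is 29902 bases long. The hairpin is 23907 bases from the exon before it and 5927 bases from the exon after it. An exon used by some transcripts of other types (nonsense-mediated decay and processed transcript) shortens the first gap to 13834 bases. The annotation also lists Gm45837, a gene that overlaps Pde2a on the same strand and holds Mir139 as well.

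**Figure D4:**
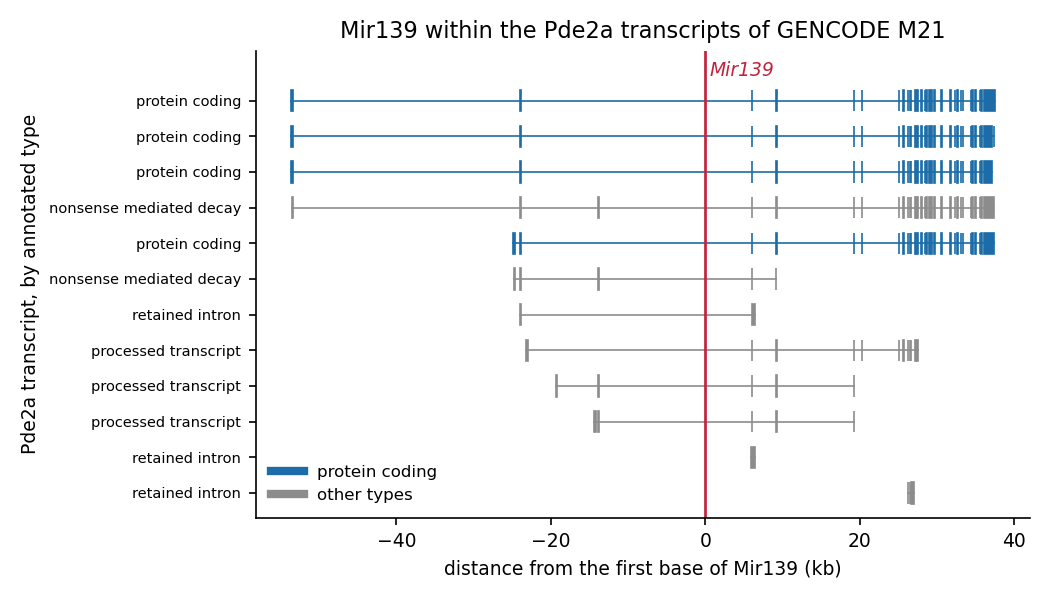
Exons (blocks) and introns (lines) of the 12 Pde2a transcripts of GENCODE M21 against the distance in kb from the first base of Mir139 (red line), with protein-coding transcripts in blue and other types in grey. The red line crosses an intron in 10 transcripts and no exon, and 2 short transcripts lie wholly to its right.

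Transcripts that start at several places carry Mir139 in an intron. Of the 4 protein-coding transcripts, 3 start 53685 or 53667 bases before the hairpin and the other starts 24856 bases before it. The nearest annotated start among the Pde2a transcripts is that of a non-coding transcript, 14432 bases before the hairpin. Starts of Gm45837 were not analysed here. The small RNA counts do not measure the level of Pde2a messenger RNA, and which start gave rise to the hairpin was not analysed here.

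The longest 3′ untranslated region among the coding Pde2a transcripts, 1164 bases, was searched for the complement of each seed. It holds 0 copies of ACTGTAG, the match to bases 2 to 8 of miR-139-5p, and 0 copies of CGTCTCC, the match for miR-139-3p, and neither is present on the opposite strand. Among 1391 other genes with a region within 10% of this length, 8.84% hold ACTGTAG and 2.30% hold CGTCTCC. The result says only that these letters are not in this window.

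Mir139 was set beside the other microRNA genes inside genes named as phosphodiesterases (symbol Pde and a digit). GENCODE M21 has 26 such genes, of which 6 contain 7 of the microRNA genes counted here. Mir582, in an intron of Pde4d, which encodes a cAMP-specific phosphodiesterase, was the only one detected besides Mir139. It had 82 counts in replicate 1 and 32 in replicate 2, so that Mir139 stood 6160-fold above it by the mean CPM. Mir582 was lower in replicate 2 too (log2 ratio -0.99; adjusted p = 0.00182, exact binomial test).

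The remaining 5 were near or at zero. Mir7672, in an exon of Pde12, had 8 and 6 counts. Mir1904 in Pde4d, Gm44413 in Pde1c, Mir7225 in Pde4dip and Gm44337 within Pde11a on the opposite strand had 0 counts in both libraries. PDE12 acts on RNA ends and Pde4dip encodes an anchoring protein, so neither is a cyclic nucleotide phosphodiesterase. Gm44337 shares an 18-base stretch with another gene, so its 0 sets no limit; for the other 3 a count of 0 allows 0.730 CPM and 0.940 CPM. All of the others together had 90 counts in replicate 1 and 38 in replicate 2.

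Of the 2202 microRNA genes, 812 lie in an intron of a gene on their own strand and overlap no exon there, and 186 of these (22.9%) were detected, against 18.4% of all genes. The class held 45.6% of the counts in replicate 1 and 43.3% in replicate 2. Mir139 supplied 22.3% and 19.2% of the counts of this class, or 20.7% ± 2.20 (SD, n = 2). With Mir139 left out, the class held 39.4% and 38.2% of the remaining counts. The 4 intronic genes next in level, Mirlet7g in Wdr82, Mir744 in Map2k4, Mirlet7e in Spaca6 and Mir149 in Gpc1, together held 15.2% of all counts in replicate 1 and 13.9% in replicate 2. Mir139 was 1.24-fold above the first of these by the mean and 4.29-fold above Mir149. The median detected gene of the class stood at 101 CPM, against 129 CPM over all detected genes.

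Mir139 has no close microRNA neighbour. Within 1000000 bases lie Gm22655, an intronic gene 405741 bases away with 0 counts in both libraries, and Mir3102, 592967 bases away on the minus strand. Mir3102, which overlaps an exon of Arhgef17, had 2372 and 1418 counts, or 577 and 445 CPM, and was lower in replicate 2 like Mir139 (log2 ratio -0.38; adjusted p = 1.75e-14, exact binomial test). Gm22655 shares an 18-base stretch with another gene, so its 0 sets no limit on its level. Of the other 152 microRNA genes on chromosome 7, 24 were detected, and Mir139 held 85.9% of the counts of the chromosome in replicate 1 and 84.3% in replicate 2.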

How the data were processed

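Small RNA was sequenced from 2 cortex libraries of 1 group. The deposited tables hold raw read counts per microRNA hairpin in 3 columns (strand ignored, strand of the gene, opposite strand) after 4 rows of reads in no gene; the README text deposited beside each table names mm10 and GENCODE M21. For the aligner and its settings, the entry is: not given in the sources used here. All 2202 identifiers matched GENCODE M21. Same-strand counts were scaled to the sum over genes (4111167 and 3189903). The genes and lists named, Mir139 among them, were chosen with earlier results of these data known. Named genes follow a rule: the 10 highest means, the 5 nearest log2 ratios, microRNA genes in phosphodiesterase genes or within 1000000 bases, shared seeds, leading intronic genes and cell type markers. With 1 group no quasi-likelihood test exists. The split of each detected gene was therefore tested with an exact binomial test (scipy 1.17.1, adjusted p threshold 0.05). That test was tried first on simulated counts that varied by read sampling and by the changes put in. Those counts held no further difference between libraries, so they do not show how the test behaves on these libraries. Scaling used edgeR 4.0.16 (TMM) and DESeq2 1.42.0 on detected genes; ViennaRNA 2.7.2 folded the hairpin. Other settings were strand ignored, other totals, other count minimums, genes with no shared stretch and each replicate left out.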

Additional observations from a re-analysis of the deposited data

How the results depend on the processing

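Of 24 values under alternatives, 16 stayed and 8 moved, none in direction. Staying means within 1 SD, for the rank unchanged, and for the log2 ratio on the same side of the threshold. Some of the 16 could not have moved. Other count minimums leave the counts of Mir139 and the totals as they were. Leaving out other genes cannot lower a rank of 1, and with strand ignored the lead over Mirlet7g uses the same counts. A log2 ratio that went from -0.29 to -0.21 also counts as staying. Larger totals lowered the Mir139 level to 33730 CPM (3.37%) with all reads and 44008 CPM (4.40%) with reads of several positions added, by construction. Among genes that share no 18-base stretch the lead over the next gene was 2.28-fold, since Mirlet7g, Mirlet7i and Mirlet7b are then left out. The effective number of genes was 66.1 without Mir139 and 54.0 with strand ignored, where 37 genes lose counts, among them Mirlet7e (0 counts in both libraries), and 381 genes are detected. Within all genes inside a same-strand gene body, exons included, Mir139 held 11.7%. Without either replicate values ranged from 83088 to 101560 CPM, 8.31 to 10.2% of counts, 1.08 to 1.42-fold over the next gene, 60.3 to 61.7 effective genes and 19.2 to 22.3% of intronic counts, and the rank was 1 each time; with 2 libraries these cannot leave 1 SD. The log2 ratio lay between -0.32 and -0.21 under its 7 alternatives, in all of which it passed the exact test. With each list's leading marker left out, an alternative chosen after seeing the data, the log2 ratio of the sum went from 0.20 to -0.014 for the neuron list and from 0.04 to -0.22 for the smooth muscle and pericyte list. No paired analysis was possible because there is 1 group.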
